A study of Drosophila melanogaster with 16 samples.

Results

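The histone mark H3K9me3 was followed along chromosome arm 3L of Drosophila melanogaster, in ovaries in which piwi or, as the control, white had been knocked down. The regions described here are all entries on 3L (genome build dm3) in the authors' 2 deposited region lists, 1 list for each driver of the knockdown. Entries on 3LHet, a separate scaffold of unplaced 3L heterochromatin, were left out. The nos list held 535 regions on 3L of 5421 in all (9.87%), and the tj list held 498 of 5144 (9.68%). The arm was divided at 21 Mb into a proximal stretch, which runs from there to the end nearest the centromere, and a distal stretch, which runs to the telomere. In the nos list 176 regions were proximal and 359 distal, and in the tj list 167 were proximal and 331 distal.

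The 4 groups were nos-GAL4->piwi, Tj-GAL4->piwi, nos-GAL4->white and Tj-GAL4->white, called nos piwi, tj piwi, nos white and tj white below. Each was 1 ChIP-seq library, made with an antibody to H3K9me3 on chromatin of 50 ovaries from flies aged 3 to 5 days and kept at 25 °C. GAL4 under nos control is active in germ cells, and GAL4 under tj control in the somatic cells that surround them. Whole ovaries were used, so each value also holds the mark of cells in which the driver was inactive. Fewer cells carrying the mark and less of the mark per cell cannot be told apart, nor can the knockdown and other differences between the fly lines. With 1 library in a group, no difference within a driver has a replicate check or a p-value. One count model was fitted across both drivers, as described with the shared regions. Levels of piwi and white were not analysed here.

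Piwi belongs to the Argonaute family and acts in the nucleus with bound piRNAs, which pair with transposon transcripts as they are made. In the fly ovary it is known for silencing transposons through H3K9me3. The mark is bound by HP1 proteins and covers the heterochromatin around centromeres densely, where transposons and their remains are common. In the gene-rich arms it is found in scattered patches, among them patches around single transposon insertions, from which the mark can spread into neighbouring DNA. The product of white carries eye pigment precursors, and its knockdown served as the control for the GAL4 driver.

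Levels are given in RPM, the reads in a region scaled to reads-per-million of the library, and regions are named by their coordinates because the lists hold no gene names. Library totals behind the RPM were 987157 reads in nos piwi, 1435888 in tj piwi, 1385901 in nos white and 1451863 in tj white, and the listed regions of all chromosomes held 53.0% to 57.8% of them. On 3L, the regions held 61929 reads in nos piwi against 84264 in nos white, and 86534 in tj piwi against 92466 in tj white. Change is the RPM in piwi divided by the RPM in white, also given as its log2, and a region is counted as lower or higher when it changed at least 2-fold. Brackets after a ratio hold a 95% interval, exact for a single region, which covers counting error only, since PCR copies were not told apart by molecular identifiers. The lists hold no input values, so the ratios are not corrected for DNA content.

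The mark was concentrated in the proximal stretch in all 4 libraries. Regions covered 26.2% of the stretch from 21 Mb to the end of the last region in the nos list and 28.0% in the tj list, against 4.002% and 3.87% of the distal stretch. In nos piwi 74.1% of the 3L reads in regions were proximal, against 69.7% in nos white. In tj piwi the proximal share was 73.4%, against 72.3% in tj white. Proximal regions were wider, with a median of 3250 bases in the nos list and 3500 in the tj list, against 1500 and 2000 bases for distal ones. Their median density, the mean of piwi and white in RPM per kb, was 31.4 in the nos list and 30.7 in the tj list, against 18.4 and 17.7 for distal regions. Depth moved with position: a proximal region held a median of 248.5 reads in the nos list and 325 in the tj list, both libraries summed, and a distal region 74 and 87.

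**Figure D1:**
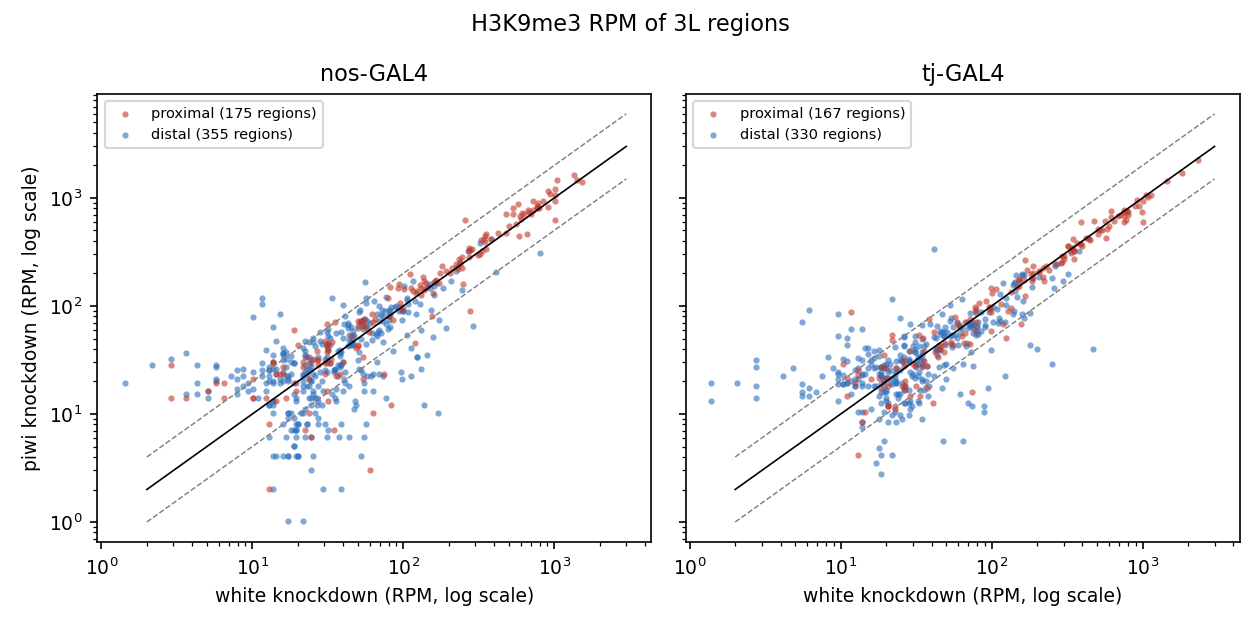
RPM of each 3L region in piwi (vertical axis) against white (horizontal axis), both log scales, for the nos and the tj list; colours mark proximal and distal regions, and regions with 0 reads in a library are left out. The solid line is equality and the dashed lines are 2-fold. Regions of the highest RPM are proximal and lie near equality, while regions of lower RPM, most of them distal, scatter past 2-fold on both sides.

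The largest blocks of H3K9me3 on the arm lay between 23 and 25 Mb in the tj list, while the third widest nos block lay in the distal stretch and is described further on. Their ratios varied. The widest tj block, chr3L:23226001-23265000, had 2228 RPM in tj piwi against 2325 RPM in tj white, a ratio of 0.958 [0.913 to 1.01]. The next, chr3L:23288001-23321000, had 1719 RPM in tj piwi against 1813 RPM in tj white, a ratio of 0.948 [0.897 to 1.002]. Both tj intervals hold 1, so these differences are within counting error. The third widest tj block, chr3L:23007001-23035500, had 746 RPM in tj piwi against 988 RPM in tj white, a ratio of 0.755 [0.697 to 0.817], which leaves out 1. The nos list gave chr3L:23438501-23454000 the highest level, 1630 RPM in nos piwi against 1344 RPM in nos white, a ratio of 1.21 [1.13 to 1.30]. With the same bounds in the tj list, this block had 1448 RPM in tj piwi against 1450 RPM in tj white, a ratio of 0.999 [0.939 to 1.06]. The log2 ratio of this block with nos was 0.28. Library totals from the authors' transposon table, used further on, shift every nos log2 ratio by -0.24.

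Not all wide proximal blocks had the same ratio. At chr3L:23626001-23651500 the level was 1478 RPM in nos piwi against 1042 RPM in nos white, a ratio of 1.42 [1.32 to 1.53]. The tj list divided this span into chr3L:23626001-23634000 and chr3L:23635001-23652000, with ratios of 0.951 [0.830 to 1.09] and 0.976 [0.896 to 1.06]. The block chr3L:23217001-23241500 had 1410 RPM in nos piwi against 1519 RPM in nos white, and its ratio of 0.928 [0.867 to 0.994] was on the other side of 1. Lower with both drivers was chr3L:23730001-23750000, with 631 RPM in nos piwi against 1017 RPM in nos white, a ratio of 0.620 [0.564 to 0.682]. Its tj counterpart chr3L:23731001-23750000 had 595 RPM in tj piwi against 1015 RPM in tj white, a ratio of 0.586 [0.538 to 0.638]. This last pair was chosen after its values were seen, and it stayed short of 2-fold.

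Over all nos regions of the arm, more were lower than higher, a direction that turned in the denser ones: with at least the median RPM per kb of the list, 10 nos regions were lower and 16 higher. In the nos list 107 of 535 regions (20%) were at least 2-fold lower in piwi, where 13.8% of all regions of that list were, and 63 (11.8%) were higher, where 11.4% of all regions were. In the tj list 55 of 498 regions (11.04%) were lower, against 9.14% of all regions, and 50 (10.04%) were higher, against 8.07%. Both tj shares and the share of higher nos regions were thus near those of the list as a whole, and the share of lower nos regions stood above it. All regions include the heterochromatin scaffolds, however. Of the other arms only 2L and 3R were compared, and both had larger shares than 3L. With nos 23.5% of regions on 2L and 30.1% on 3R were lower, and with tj 12.6% and 16.7%. Among regions with at least 100 reads, 30 of 249 in the nos list were lower (12.0%, against 8.18% of all such regions) and 10 were higher (4.02%, against 4.54%). Of the tj regions 22 of 272 were lower (8.09%, against 5.44%) and 12 higher (4.41%, against 3.39%).

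The counting interval held 1 for some of these changes, but for few of those past 2-fold. The interval of the ratio lay below 1 in 125 nos regions and above 1 in 129, and in the tj list below 1 in 110 and above 1 in 91. It left out 1 in 103 of the 107 lower and 59 of the 63 higher nos regions, and in all 55 lower and 50 higher tj regions. The same reads set the 2-fold cut and the interval, so this is largely fixed by the cut. The intervals are not adjusted for the number of regions.

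Most regions past 2-fold were distal. Among distal regions 93 (25.9%) were lower and 48 (13.4%) higher in the nos list, and 47 (14.2%) were lower and 46 (13.9%) higher in the tj list. Proximal regions gave 14 lower (7.95%) and 15 higher (8.52%) in the nos list, and 8 lower (4.79%) and 4 higher (2.40%) in the tj list. The interquartile range of the log2 ratio was 0.50 in proximal regions against 1.62 in distal regions of the nos list, and 0.36 against 1.11 in the tj list. Fewer reads in distal regions moved with this wider scatter. With at least 100 reads it was 0.34 in proximal against 0.73 in distal regions of the nos list, and 0.26 against 0.80 in the tj list, the same order. Depth still differed among these regions, with a median of 543 reads in proximal against 173 in distal nos regions. For tj it was 603 against 190, so the part of depth in the scatter was not tested.

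Summed over each stretch, the proximal regions had a higher ratio of piwi to white than the distal ones, with both drivers. The summed proximal RPM in nos piwi was 1.097 times that in nos white [1.08 to 1.11], against 0.882 [0.865 to 0.900] for the distal sum. For tj the ratio of piwi to white was 0.960 [0.950 to 0.971] proximally, against 0.910 [0.894 to 0.926] distally. The distal tj sums, 23048 reads in tj piwi and 25615 in tj white, include 58 and 680 reads of chr3L:10658001-10669500. The tj ratio without this region was not computed. The proximal ratio divided by the distal ratio, which does not depend on library totals, was 1.24 [1.22 to 1.27] with nos and 1.06 [1.03 to 1.08] with tj. Divided by each other, nos over tj, these gave 1.18 [1.14 to 1.22]. Those intervals leave out 1, but they hold no spread between ovary samples, which 1 library in a group cannot give.

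Whether proximal nos regions gained or lost depended on the library total. The median log2 ratio of proximal regions was 0.18 in the nos list and -0.052 in the tj list, and that of distal regions -0.051 and -0.040. With tj the proximal median was thus not above the distal one, unlike the ratios of summed reads. Library totals taken instead from the authors' transposon table, which counts more reads per library, shift every nos log2 ratio by -0.24 and every tj log2 ratio by -0.020. The proximal nos median then became -0.063, and on the arm 123 nos regions were lower and 42 higher. Setting the median of all regions to 0 gave a proximal nos median of 0.013. A direction for the proximal nos regions as a whole therefore holds for the region list totals only.

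**Figure D2:**
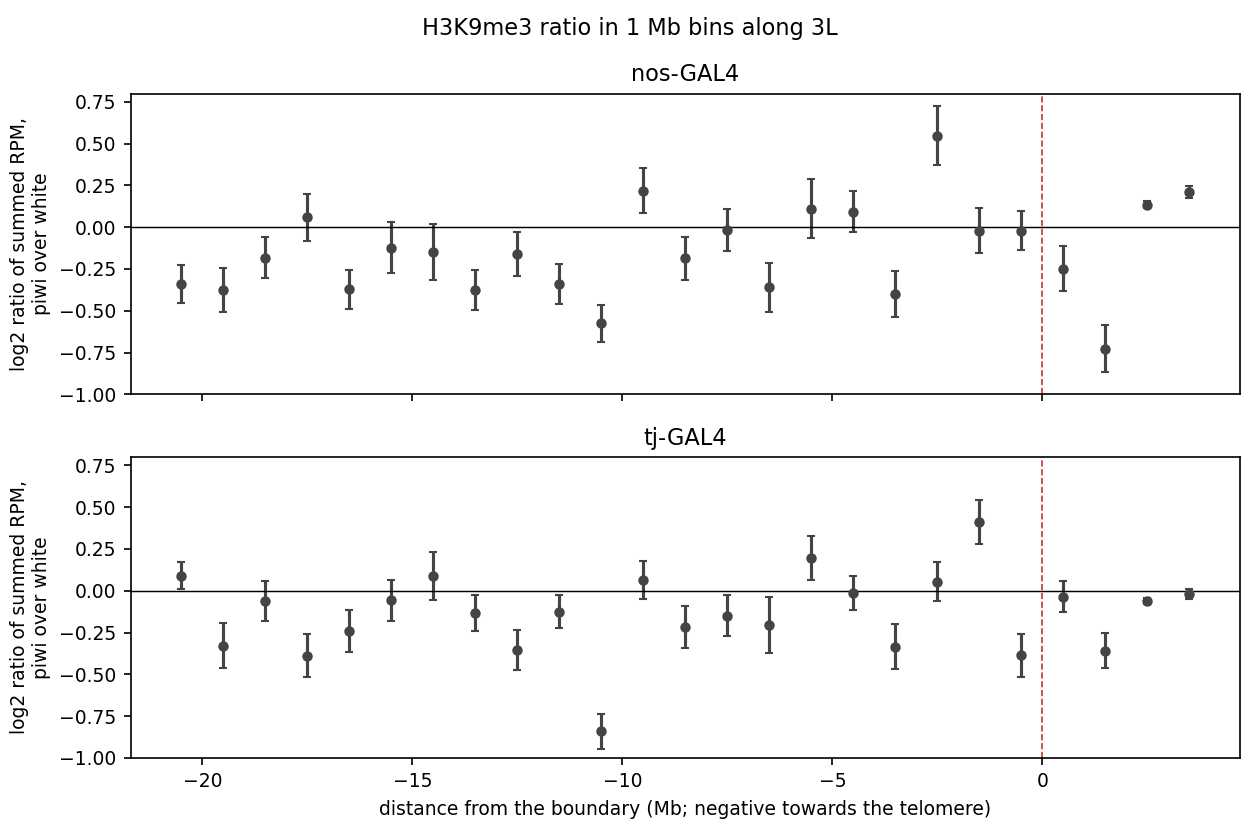
Ratio of summed RPM, piwi over white, in 1 Mb bins along 3L (horizontal axis: distance in Mb of each bin's centre from the 21 Mb boundary, negative towards the telomere; vertical axis: log2 ratio), for nos above and tj under it, with bars for the 95% counting interval and a dashed line at the boundary. The bin from 22 to 23 Mb, the second to the right of the line, lies below equality with both drivers. The bins past 23 Mb lie above it with nos and close to it with tj, at the region list totals.

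The proximal stretch itself was not uniform. From 21 to 23 Mb, 13 of 36 nos regions were lower and 5 higher, and the summed nos ratio was 0.715 [0.668 to 0.764]. There the tj list had 7 of 37 regions lower and 3 higher, and a summed ratio of 0.882 [0.841 to 0.926]. From 23 Mb on, only 1 of 140 nos regions was lower and 10 were higher, with a summed nos ratio of 1.11 [1.1004 to 1.13] at the region list totals. Of the 130 tj regions there, 1 was lower and 1 higher, and the summed tj ratio was 0.965 [0.954 to 0.975]. The stretch from 21 to 23 Mb was thinner in the mark, at a median density of 15.9 RPM per kb in the nos list and 15.3 in the tj list, against 38.3 and 36.9 from 23 Mb on. By density and by ratio, the regions from 21 to 23 Mb were nearer to the distal regions than to those past 23 Mb.

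The lowest values of this stretch were in the bin from 22 to 23 Mb, where 9 of 19 nos regions and 5 of 20 tj regions were lower. In that bin the summed ratio was 0.604 with nos and 0.780 with tj. From 21 to 22 Mb it was 0.841 [0.766 to 0.923] with nos, with 4 of 17 regions lower and 4 higher, and 0.975 with tj. Among regions of the bin from 22 to 23 Mb with reads in both libraries, the lowest nos ratio was at chr3L:22904001-22907500, with 3.04 RPM in nos piwi against 59.9 RPM in nos white, a ratio of 0.0507. This region held only 3 reads in nos piwi and 83 in nos white, short of the 100 reads asked for elsewhere. Its tj counterpart chr3L:22903501-22907500 had 16.0 RPM in tj piwi against 73.7 RPM in tj white, a ratio of 0.217. Both piwi libraries lay below both white libraries. Distal bins varied as much: the bin from 10 to 11 Mb had a summed ratio of 0.671 with nos and 0.558 with tj, in both lists with 1 wide region that carried many of its reads, described next.

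Width moved with the direction of change in the nos list. Of 299 nos regions up to 2 kb wide, 62 were lower and 55 higher. Of 156 between 2 and 5 kb, 35 were lower and 7 higher, and of 80 wider than 5 kb, 10 were lower and 1 higher. The tj counts were 29 lower and 34 higher of 254 narrow regions, 22 and 14 of 155 between 2 and 5 kb, and 4 and 2 of 89 wider ones. Lower regions outnumbered higher ones above 2 kb with both drivers. Reads per region rise with width, from a median of 52 in the narrowest nos class to 926.5 in the widest, and their part in this was not tested.

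Large distal blocks differed among themselves. At chr3L:8095501-8103000 the level was 413 RPM in nos piwi against 380 RPM in nos white, a ratio of 1.09 [0.955 to 1.24]. With the same bounds this block had 416 RPM in tj piwi against 442 RPM in tj white, a ratio of 0.943 [0.842 to 1.06], so it was within counting error with both drivers. By contrast, chr3L:7634501-7644500 had 208 RPM in nos piwi against 411 RPM in nos white, a ratio of 0.506 [0.429 to 0.594]. Its tj counterpart chr3L:7635001-7645000 had 169 RPM in tj piwi against 298 RPM in tj white, a ratio of 0.567 [0.483 to 0.666], lower to a similar degree. These blocks were chosen after their values were seen.

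Regions that were lower in piwi with both drivers were found along the whole distal stretch. The widest was chr3L:10657501-10681500 in the nos list, with 307 RPM in nos piwi against 808 RPM in nos white, a ratio of 0.380 [0.333 to 0.432]. The tj list called chr3L:10658001-10669500 there, with 40.4 RPM in tj piwi against 468 RPM in tj white, a ratio of 0.0862 [0.0648 to 0.113]. The piwi libraries were the low ones with each driver, and the tj list divided the span. The other tj regions there, chr3L:10672501-10676000 and chr3L:10678001-10679500, had ratios of 0.2499 [0.149 to 0.402] and 0.372 [0.225 to 0.596], so all 3 tj regions of the span were lower. At chr3L:15033001-15037500 the level was 12.2 RPM in nos piwi against 138 RPM in nos white, a ratio of 0.0882 [0.0448 to 0.158]. For tj, chr3L:15033501-15037500 had 17.4 RPM in tj piwi against 94.4 RPM in tj white, a ratio of 0.185. At chr3L:1376001-1380000 nos piwi had 26.3 RPM against 131 RPM in nos white, a ratio of 0.202 [0.128 to 0.305]. The tj list had 22.3 RPM in tj piwi against 123 RPM in tj white at chr3L:1375501-1380000, a ratio of 0.181 [0.120 to 0.264], close to the nos value.

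Further such regions were chr3L:297001-301000, with a ratio of 0.218 in the nos list, and chr3L:297001-300000, with 0.159 in the tj list. The pair near 13.6 Mb, chr3L:13628001-13631500 and chr3L:13628501-13631000, had ratios of 0.184 with nos and 0.117 with tj. Regions at chr3L:13945501-13949500 and chr3L:14655001-14661000 each had a nos ratio of 0.271, and their tj counterparts, from 13945001 and 14655501 on, had ratios of 0.117 and 0.132. In each of these pairs both piwi libraries were lower than both white libraries in RPM per kb.

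The regions that were most increased in piwi with both drivers carried little of the mark in white. At chr3L:12068001-12072500 the level was 119 RPM in nos piwi against 11.5 RPM in nos white, a ratio of 10.3 [6.06 to 18.6]. The tj region chr3L:12069501-12072500 had 71.0 RPM in tj piwi against 5.51 RPM in tj white, a ratio of 12.9 [6.30 to 30.7]. Both piwi libraries were high and both white libraries low, at 8 reads in tj white and 16 in nos white. At chr3L:9096001-9099500 nos piwi had 105 RPM against 11.5 RPM in nos white, a ratio of 9.13 [5.36 to 16.6]. For tj, chr3L:9096501-9099500 had 91.9 RPM in tj piwi against 6.20 RPM in tj white, a ratio of 14.8 [7.58 to 33.1].

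This second region lies next to one that moved the other way. In the tj list the gap between chr3L:9077501-9084000 and the region starting at 9096501 was 12.5 kb, with no region called in it. At chr3L:9077501-9085000 nos piwi had 65.8 RPM against 292 RPM in nos white, a ratio of 0.226. The tj list gave 29.3 RPM in tj piwi against 251 RPM in tj white at chr3L:9077501-9084000, a ratio of 0.117 [0.0827 to 0.161]. Neighbouring regions thus differed in direction in both piwi libraries.

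Other regions were higher with both drivers. At chr3L:11976501-11980000 nos piwi had 85.1 RPM against 15.2 RPM in nos white, a ratio of 5.62 [3.45 to 9.54]. The tj region chr3L:11974001-11979500 had 115 RPM in tj piwi against 22.04 RPM in tj white, a ratio of 5.21 [3.55 to 7.87]. Near 19 Mb, chr3L:18994001-19000000 had 167 RPM in nos piwi against 55.6 RPM in nos white, a ratio of 3.01 [2.28 to 3.996], and chr3L:18994001-18996500 had 85.0 RPM in tj piwi against 9.64 RPM in tj white, a ratio of 8.81 [5.05 to 16.6]. At chr3L:14914501-14915500 the tj libraries had 28 reads in tj piwi and 0 in tj white, at least 9.44-fold higher when white is set to 3 reads, and the nos region chr3L:14912501-14916500 had 79.0 RPM in nos piwi against 10.1 RPM in nos white, a ratio of 7.82. In all of these both piwi libraries exceeded both white libraries.

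The regions nearest the telomere were lower in piwi with both drivers. At chr3L:22501-27000 there were 0 reads in nos piwi against 127 in nos white, a ratio of 0 [0 to 0.0414]. That is 30.2-fold lower when piwi is set to 3 reads. The next region, chr3L:31501-35000, had 0 reads in nos piwi against 86 in nos white, a ratio of 0 [0 to 0.0615]. With piwi set to 3 reads it was 20.4-fold lower. In the tj list chr3L:20001-27500 had 39.7 RPM in tj piwi against 201 RPM in tj white, a ratio of 0.197 [0.146 to 0.263], and chr3L:29001-38500 had a ratio of 0.567 [0.477 to 0.673]. The next tj regions along the arm, chr3L:39501-50000 and chr3L:53001-56000, had ratios of 1.16 [0.961 to 1.40] and 1.28 [0.851 to 1.94]. In the nos list the next region, chr3L:54001-55000, had 7 reads in nos piwi against 44 in nos white, a ratio of 0.223 [0.0849 to 0.4998], so the nos regions there were lower where the tj intervals held 1. At the other end of the arm, chr3L:24524001-24536000 had 445 RPM in nos piwi against 580 RPM in nos white, a ratio of 0.767 [0.681 to 0.862], and 469 RPM in tj piwi against 503 RPM in tj white, a ratio of 0.931 [0.837 to 1.04].

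At the 21 Mb boundary some neighbouring regions differed widely. Among nos regions with at least 100 reads, the last distal ones, chr3L:20945001-20947000 and chr3L:20984501-20986000, had ratios of 1.86 and 0.386. The first proximal ones, chr3L:21124501-21126500 and chr3L:21234501-21237000, had nos ratios of 1.38 and 0.875. For tj, the last distal regions, chr3L:20521501-20525000 and chr3L:20945501-20948000, had ratios of 0.917 and 1.97. The first proximal tj regions, chr3L:21050001-21055000 and chr3L:21124501-21127500, had ratios of 7.55 and 1.02. The intervals of the first proximal nos regions, [0.986 to 1.94] and [0.583 to 1.30], overlapped and both held 1. Those of the last distal nos regions did not overlap, and neither did those of the tj regions on each side.

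The drivers were compared in regions present in both lists. A nos and a tj region were paired when each was the other's largest overlap. This gave 376 pairs on 3L, 70.3% of the nos regions and 75.5% of the tj regions, and 111 pairs had identical bounds. Of these pairs 24 (6.38%) were lower with both drivers, where 4.11% of the 4059 pairs on all chromosomes were. Those 24 were 46.2% of the 52 paired nos regions that were lower and 64.9% of the 37 such tj regions. Higher with both were 9 pairs (2.39%), where 2.81% of all pairs were, which is 28.1% of the 32 nos and 39.1% of the 23 tj regions that were higher. On 2L 9.33% of pairs were lower and 6.13% higher with both drivers, and on 3R 13.1% and 7.76%, so both shares on 3L were below those of these arms. Opposite 2-fold changes were seen in 1 pair, at chr3L:66001-68500 in the nos list, and in 22 of the 4059 pairs on all chromosomes. In 83 pairs (22.1%) both piwi libraries were below both white libraries in RPM per kb, where 18.6% of all pairs were, and in 77 (20.5%) both were above, where 24.8% were.

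**Figure D3:**
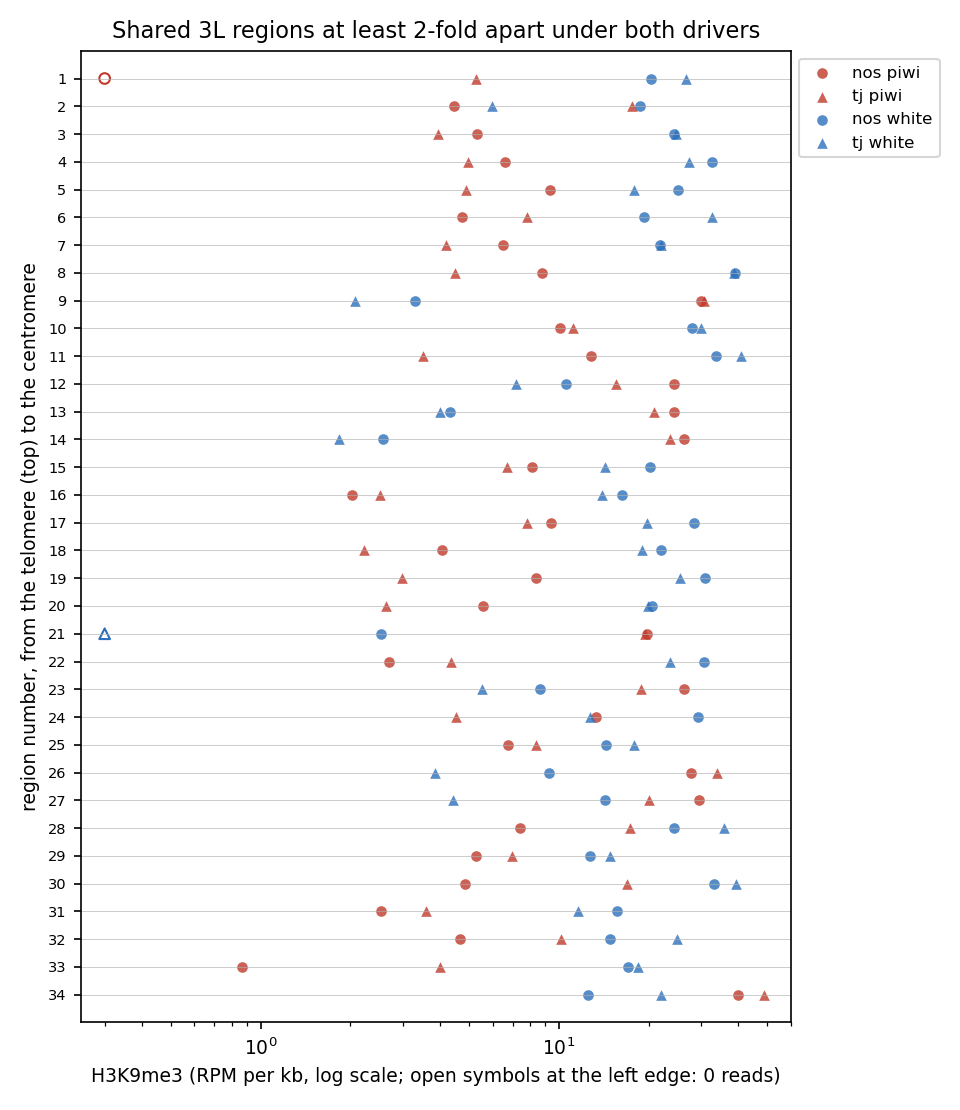
RPM per kb (log scale) of the 34 shared 3L regions that changed at least 2-fold with both drivers, numbered from the telomere end to the centromere end; red is piwi, blue is white, circles are nos, triangles are tj, and open symbols mark 0 reads. In 32 of the 33 regions that changed the same way both piwi libraries lie on 1 side of both white libraries. This follows largely from choosing them by a 2-fold change in the same libraries. Region 2 is the 1 that changed in opposite directions.

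Of the 33 pairs that changed the same way, 27 were distal, with 19 lower and 8 higher, and 6 were proximal, with 5 lower and 1 higher. All 5 proximal losses lay between 21 and 23 Mb. The 24 shared losses ranged in density from 0 to 13.3 RPM per kb in nos piwi against 12.7 to 38.9 in nos white, and from 2.23 to 17.3 in tj piwi against 11.6 to 40.7 in tj white. The 9 shared gains ranged from 19.8 to 39.8 RPM per kb in nos piwi against 2.53 to 14.3 in nos white, and from 15.6 to 48.8 in tj piwi against 0 to 22.04 in tj white. The piwi densities of the gains and the white densities of the losses thus overlapped.

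A count model with the driver as a block and piwi against white (edgeR's quasi-likelihood test, chosen after the data were seen) was fitted to the reads of all 4059 pairs. It takes the drivers as repeats of 1 knockdown although they act in different cells, and it has 1 residual degree of freedom. At a Benjamini-Hochberg adjusted p of at most 0.05, 34 pairs on 3L (9.04%) were lower in piwi, where 5.99% of all pairs were, and 13 (3.46%) were higher, where 3.57% were. Lower pairs were 13.3% on 2L and 16.4% on 3R. Of the 34 lower pairs on 3L, 28 were distal and 6 proximal, and of the 13 higher pairs 10 were distal and 3 proximal. The model called 29 of the 33 pairs that changed at least 2-fold the same way, 21 of them lower and 8 higher. It used the same reads as the 2-fold calls, so this is not a separate check of them. With transposon table totals 30 pairs on 3L were lower and 6 higher.

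**Figure D4:**
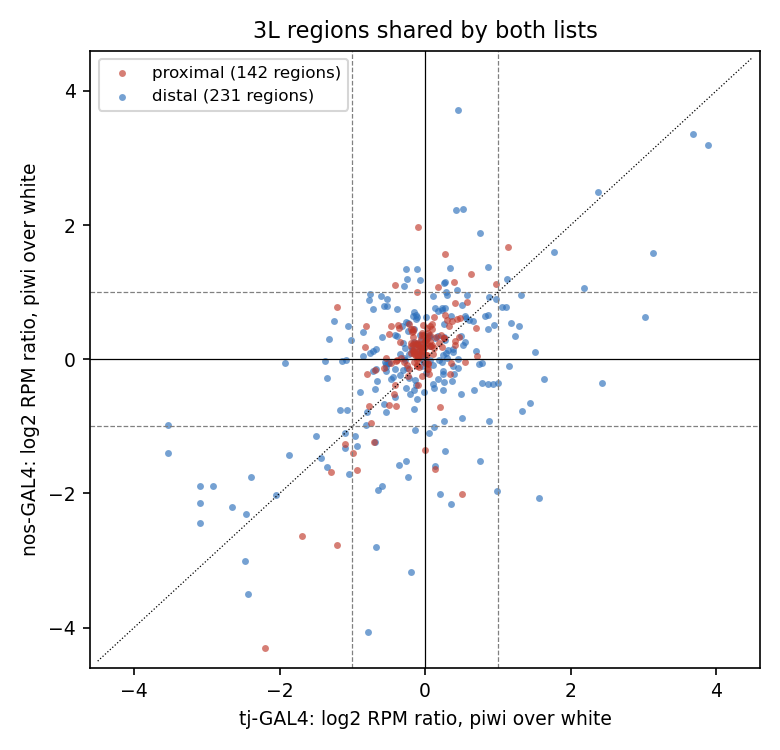
Log2 ratio, piwi over white, with nos (vertical axis) and tj (horizontal axis) for shared 3L regions with reads in all 4 libraries; colours mark proximal and distal regions, dashed lines 2-fold and the dotted line equal ratios. Distal regions spread widely in both directions. At the region list totals, most proximal regions gather near 0 with tj and slightly above 0 with nos.

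Across the 373 pairs with reads in all libraries, the nos and tj log2 ratios had a Pearson correlation of 0.54 and a Spearman correlation of 0.39. With no minimum of reads the Pearson correlation was 0.54 in distal and 0.63 in proximal pairs. Within the proximal stretch it was 0.81 from 21 to 23 Mb and 0.27 over 118 pairs from 23 Mb on. With at least 100 reads in each list it was 0.75 over 98 distal pairs and 0.65 in proximal pairs. The 111 pairs with identical bounds gave only 0.24. On 2L and 3R it was 0.75 and 0.72 with no minimum of reads. The points of each driver share the same pair of libraries, and the 2 drivers share no library. Of 118 pairs from 23 Mb on, 97 had a higher ratio with nos than with tj, by a median of 0.22 in log2. Over all 3L pairs this median was 0.17, over proximal pairs 0.20, over distal pairs 0.095, and over pairs from 21 to 23 Mb it was -0.18. Other library totals move the nos ratios together by more than the arm-wide difference, which became -0.055 with transposon table totals. Those totals lower every nos log2 ratio by 0.24 and every tj log2 ratio by 0.020. That shift is about as large as the median from 23 Mb on, so the higher nos ratios there rest on the region list totals. The white libraries of both drivers differed from each other by a median absolute log2 of 0.26 in RPM per kb, each over its own list's bounds. The median absolute log2 ratio of piwi to white, within the same bounds, was 0.39 with nos and 0.34 with tj.

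Several regions changed with 1 driver much more than with the other. At chr3L:17837001-17840500 nos piwi had 10.1 RPM against 169 RPM in nos white, a ratio of 0.0600 [0.0284 to 0.112], whereas chr3L:17836501-17840500 had 71.7 RPM in tj piwi against 123 RPM in tj white, a ratio of 0.582 [0.452 to 0.746]. At chr3L:759501-763000 nos piwi had 55.7 RPM against 36.1 RPM in nos white, and the wider tj region chr3L:753501-764500 had 335 RPM in tj piwi against 41.3 RPM in tj white, a ratio of 8.11 [6.19 to 10.8]. The nos block chr3L:23102501-23106000 had 623 RPM in nos piwi against 258 RPM in nos white, a ratio of 2.42 [2.12 to 2.76]. Its tj counterpart chr3L:23102501-23108000 had 603 RPM in tj piwi against 388 RPM in tj white, a ratio of 1.55 [1.39 to 1.73]. These differences between drivers were not tested, since each rests on single libraries.

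Regions with a large change in 1 list had in some cases no overlapping region in the other. At chr3L:20816001-20818000 nos piwi had 118 RPM against 33.9 RPM in nos white, a ratio of 3.47 [2.45 to 4.97]. At chr3L:2423501-2429000 nos piwi had 22.3 RPM against 112 RPM in nos white, a ratio of 0.199 [0.121 to 0.313]. Neither overlapped a tj region. Among tj regions, chr3L:19003501-19007500 had 60.6 RPM in tj piwi against 11.7 RPM in tj white, a ratio of 5.17 [3.05 to 9.29], and chr3L:19418501-19422000 had 61.3 RPM in tj piwi against 13.8 RPM in tj white, a ratio of 4.45 [2.71 to 7.64]. Neither overlapped a nos region. Both lie in the bin from 19 to 20 Mb, where 9 of 19 tj regions were higher and 0 lower, against 2 higher and 3 lower of 17 nos regions. The lowest tj ratio, 0.0861 [0.0361 to 0.177] at chr3L:853001-855000, rested on 5.57 RPM in tj piwi against 64.7 RPM in tj white, while the wider nos region chr3L:851501-855000 had a ratio of 0.510 [0.365 to 0.702].

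Of the nos regions on 3L 75.5% overlapped a tj region, against 75.8% on 2L, 69.1% on 3R and 96.4% on 3LHet. For tj regions these shares were 78.9%, 72.3%, 74.9% and 90.8%. The share over all chromosomes was not computed. Regions of 3L without an overlap were mostly distal, 117 of 131 in the nos list and 87 of 105 in the tj list. Among all 3L regions 67.1% in the nos list and 66.5% in the tj list were distal. Of the nos regions without an overlap 52 (39.7%) were lower and 26 (19.8%) higher. All nos regions on 3L had 20% and 11.8%, and the whole nos list 13.8% and 11.4%. Of the tj regions without an overlap 13 (12.4%) were lower and 25 (23.8%) higher. All tj regions on 3L had 11.04% and 10.04%, and the whole tj list 9.14% and 8.07%. Regions without an overlap were narrow, with a median of 1500 bases in each list. They were also thinly covered, with a median of 45 reads in the nos list and 58 in the tj list. A region enters a list only where enough reads were found, so a region of 1 list is not shown to lack the mark in the other.

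The ratio over all 3L regions was higher than on 2L and 3R with nos, and lay between them with tj. The summed ratio over the arm was 1.03 [1.02 to 1.04] with nos and 0.946 [0.938 to 0.955] with tj. On 2L it was 0.990 with nos and 1.01 with tj, and on 3R 0.753 and 0.841. The scaffold 3LHet had summed ratios of 1.26 [1.24 to 1.28] with nos and 1.02 [1.01 to 1.03] with tj. Only 2 of its 220 nos regions were lower and 19 higher, and 4 of its 229 tj regions were lower and 6 higher. Regions of 3L from 23 Mb on and those of 3LHet thus shared few losses of 2-fold, and a summed nos ratio above 1 at these library totals. With transposon table totals every nos ratio is 0.24 lower in log2.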

How the data were processed

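H3K9me3 ChIP-seq region lists for nos and tj ovaries were used, with 1 library in each of 4 groups taken from the sample titles. The submitters' processing notes name Bowtie2 2.0.0, SICER 1.1 and build dm3, with no roles. The sources used here do not say whether regions were called per library or on pooled reads. Per the file headers, each deposited list gives a region's RPM in piwi and in white, the fold between them and an adjusted p-value. The deposited fold holds a small offset, so the ratio was recomputed from the RPM, and the deposited p-value was not used for calls. Of another pair of deposited tables, 6 columns of values that name no sample were not used.

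Every RPM value was a whole number of reads within 1e-06 reads (100% of values), which gave the totals and the reads behind each region. The 2-fold call, a minimum of 100 reads where stated, exact Clopper-Pearson 95% intervals for regions, and intervals from reciprocal read numbers for sums were computed from these. A count of 0 was set to 3 reads to give a fold, which leaves out the counting error of the other library. Depths of 987157 to 1451863 reads limit precision most in narrow distal regions. Starts lie on a grid of 500 bases counted from 0, and coordinates are given 1-based. Regions were paired by largest mutual overlap of at least 1 base.

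Regions were named by rule: among those with at least 100 reads, the 8 lowest and 8 highest ratios, the 5 of highest RPM, the 5 widest, the 5 first and last, those flanking 21 Mb, and the 8 largest driver differences each way. Others named were chosen after their values were seen, among them regions with 0 reads, counterparts in the other list and shared 2-fold regions. Members and lists were chosen with earlier results of these data known. The dm3 sequence and gene annotation were not used here. Shared regions were also fitted with edgeR 4.0.16 in R 4.3.3 (glmQLFit, driver plus knockdown, deposited library totals as recovered, no filter), as an alternative chosen after the data were seen. Python 3.11.15, numpy 2.4.6, scipy 1.17.1, pandas 2.3.3 and matplotlib 3.10.9 were used, and the calculation was tested on simulated data.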

Additional observations from a re-analysis of the deposited data

Results flagged for a closer look

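With region list totals, the change went opposite ways with the drivers in 12 of the 376 shared regions on 3L. Neither 95% counting interval held 1 there. The same count over all chromosomes was not made, and the intervals are not adjusted for the number of regions. The 6 given here had at least 100 reads in each list (5 regions) or passed 2-fold with both drivers (1 region). The difference between drivers was not tested, since each value rests on single libraries. At chr3L:67001-68500 in the tj list the difference of log2 ratio, nos minus tj, was -3.64, from 11 reads in nos piwi against 65 in nos white and 38 in tj piwi against 13 in tj white. The ratio there was 0.238 [0.113 to 0.454] with nos and 2.96 [1.54 to 6.05] with tj. At chr3L:2830501-2832000 the difference, nos minus tj, was 1.81, with ratios of 1.48 with nos and 0.421 with tj. At tj region chr3L:18715501-18717500 it was 1.36, with ratios of 1.74 and 0.677.

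The other 3 flagged regions lay past 23 Mb. The difference was 0.58 at chr3L:23581501-23589000, 0.50 at tj region chr3L:23599501-23614000 and 0.88 at tj region chr3L:24273001-24276500. Their nos ratios were 1.32, 1.26 and 1.31 and their tj ratios 0.885, 0.891 and 0.711. With transposon table totals the nos ratios became 1.12, 1.07 and 1.104, still above 1. The lower nos bounds at 23599501 and 24273001, which were 1.17 and 1.03 with region list totals, then fall below 1. So does the bound at chr3L:2830501-2832000, from 1.003. The flags of these regions thus hold for the region list totals only.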

How the results depend on the processing

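Within a driver no count model was run, since 1 library in a group leaves no residual degrees of freedom there. With the driver as a block over paired regions, the count model had 13 higher regions on 3L, and 6 with transposon table totals. Of 53 alternative values, 31 kept their direction and stayed near the main value. Counts of 2-fold regions followed the threshold and depth. At 1.5-fold, 100 tj regions were lower and 90 higher, and 116 nos regions higher. With at least 100 reads, 30 nos regions were lower and 10 higher, and 22 tj regions lower and 12 higher. In dense regions, with at least the median RPM per kb of all regions (a limit chosen after seeing the data), 10 nos regions were lower and 16 higher, and 8 tj regions lower and 3 higher.

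The proximal over distal ratio with nos was 1.29 with the boundary at 23 Mb, 1.21 without the 5 regions of most reads on each side and 1.17 in dense regions. With tj it was 1.11 with at least 100 reads and 1.12 in dense regions. All stayed above 1, but all are ratios of summed reads, and the tj medians of single regions did not have this order. The nos median log2 ratio reversed to -0.090 when centred on all regions and to -0.17 with transposon table totals, and was 0.15 in dense regions. The nos minus tj median reversed to -0.024 when centred and to -0.055 with those totals, so neither direction holds across scalings. A limit on the deposited adjusted p-value was not run, because no region lower in piwi had a value below 1, so it would select by the change. Depth limits narrow distal regions most.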
